A study of Mus musculus with 15 samples.

Results

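The mRNAs of the TCF/LEF transcription factors (*Lef1*, *Tcf7*, *Tcf7l2*), of β-catenin (*Ctnnb1*), of 3 proteins that hold β-catenin in check (*Axin1*, *Axin2*, *Apc*) and of 3 Groucho corepressors (*Tle1*, *Tle3*, *Tle4*) were read from an RNA-sequencing table of 15 mouse T cell leukemia lines. The 10 genes were chosen by name, and 9 of them are among the 12545 genes that the table lists. *Tcf7l2*, which encodes TCF4, is not listed, so no value is given for it. All 15 lines lacked E2A, an E protein transcription factor of early lymphocytes, and were grown from the thymus of moribund FVB/NJ mice. The 7 *E2a-/-* lines (SKO95, SKO115.2, SKO132, SKO137.1, SKO156.6, SKO186.5 and SKO163.5) were compared with 8 DKO lines (DKO79.9, DKO102.4, DKO170.2, DKO192.3, DKO241, DKO548, DKO713 and DKOTu3). DKO mice carried floxed *Lef1* (LefF/F) and the LckCre+ transgene, in which the *Lck* promoter drives Cre in T-lineage cells from an early stage. The loxP sites flank only the exons of the DNA binding domain, and the table holds 1 value per gene, so reads from an allele without these exons are counted as *Lef1*. Each line gave 1 library, and mouse ages are not in the labels. The labels do not say that every line came from a separate mouse, and if some did not, the p-values measure only the spread between these lines.

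TCF/LEF factors bind DNA at CTTTG-containing sites. Without a partner they recruit Groucho corepressors of the TLE family and hold their targets silent. When a Wnt signal reaches the cell, β-catenin escapes the destruction complex built on the Axin proteins and APC, enters the nucleus, takes the place of the corepressors and turns the targets on. *Axin2* is itself such a target and is widely read as a gauge of the pathway. In the thymus TCF1 (from *Tcf7*) and LEF1 act in overlapping ways to specify T cells and to carry them through β-selection, and TCF1 also limits leukemia in mice.

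A line had from 4847970 to 21681586 reads across all listed genes, with DKO79.9 the shallowest. In CPM, the reads of a gene scaled to a fixed total of gene reads per line, 3 reads amount to 0.138 CPM in the deepest and 0.618 CPM in the shallowest line, and lower values cannot be told apart from 0. This limit covers counting error only. All 15 T-lineage markers examined were listed, and they summed to 5138 to 6071 CPM in DKO lines and to 2851 to 6120 CPM in *E2a-/-* lines. The lowest sum was that of the library labelled SKO132, with *Cd3d* at 47.0 CPM and *Ptcra* at 0.2 CPM but *Thy1* at 849 CPM. Of 22 markers of other cell types 6 were listed, and their sums of 70.8 to 1031 CPM in DKO lines and 88.8 to 383 CPM in *E2a-/-* lines came mostly from the collagen gene *Col1a2* (0 to 947 CPM) and the endothelial gene *Pecam1* (44.9 to 157.4 CPM). *Pecam1* was the higher of the pair in DKOTu3, SKO95, SKO115.2 and SKO163.5. The B cell and erythroid markers are not listed, apart from *Hbb-b1*, whose symbol matched no gene identifier and could not be looked up. The part of these markers in the results was not tested. *Tcf3*, the gene that encodes E2A, had reads in every line (117 to 243 CPM), with means of 168 ± 33.8 CPM (SD, n = 8 DKO lines) and 175 ± 32.5 CPM (SD, n = 7 *E2a-/-* lines). A total per gene does not check the deletion of some of its exons. SKO156.6 and SKO186.5 were more alike (Spearman rho 0.987 across all listed genes, which are not independent) than any of the 48 other pairs within a genotype (0.845 to 0.969).

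The question of the comparison was how leukemias that arose without LEF1 differ from E2A-deficient leukemias that kept it. *Lef1* was lower in DKO lines by 2.33 on the log2 scale, while *Axin2* and *Tcf7* were higher by 1.73 and 0.66. The other 6 listed genes had differences whose 95% intervals include 0. Across the whole table limma, a test that shares the estimate of the spread between genes, called few genes at all. At an adjusted p under 0.01 it called 6 of 12545 genes (0.0478%), and 0 of the 9 genes described here. At an unadjusted p under 0.05, *Tcf7* and *Axin2* were higher in DKO lines, where 4.33% of all genes pass, and *Lef1* was lower, where 5.83% pass. Groups without any overlap were found for 0.175% of all genes and for 0 of the 9. On whole reads recovered from the CPM values, edgeR's likelihood ratio test (1.24% of all genes at an adjusted p under 0.01) and DESeq2 (1.41%) each called 2 of the 9, *Lef1* and *Axin2*, and edgeR's quasi-likelihood test called 0. Differences are of log2(CPM + 1), DKO minus *E2a-/-*, and understate those of genes with few reads. The exact permutation tests given for the 9 genes are two-sided, unadjusted, and run over every division of the 15 lines into sets of 8 and 7.

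**Figure D1:**
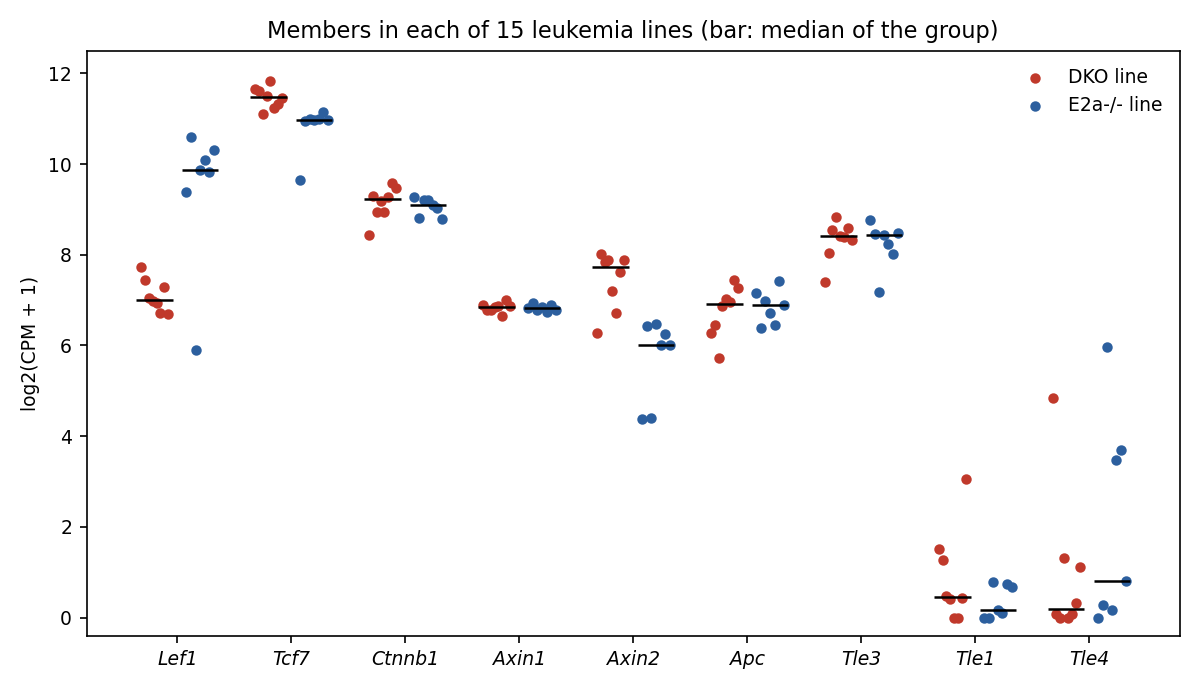
Each point is 1 line, red for the 8 DKO and blue for the 7 E2a-/- lines, with log2(CPM + 1) on the vertical axis and a black bar at the median of the group. *Lef1* separates apart from 1 blue point below all red ones (SKO132), *Axin1* is nearly flat, and *Tle1* and *Tle4* are near 0 in most lines.

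**Figure D2:**
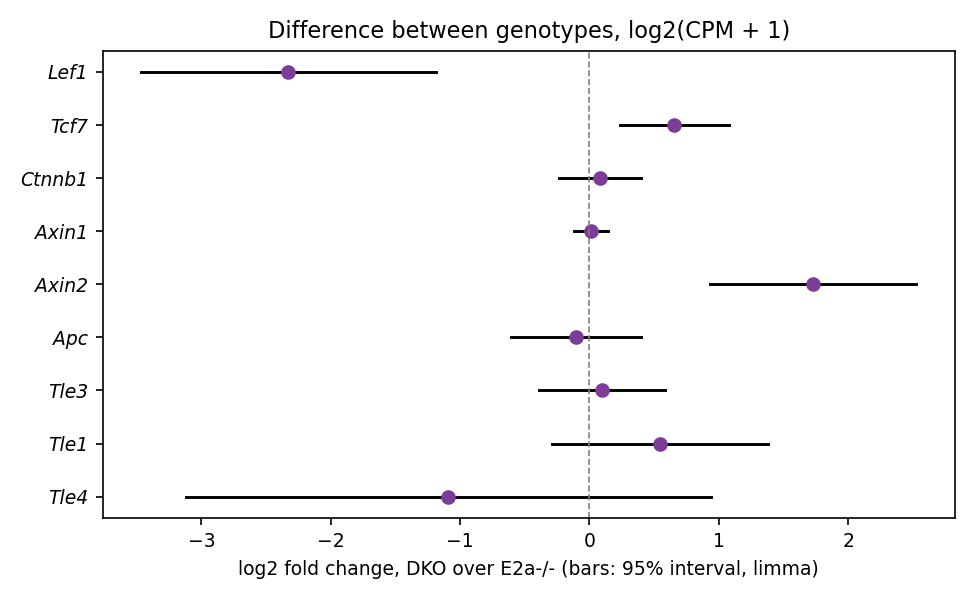
Points give the log2 fold change of DKO over E2a-/- lines for each gene and bars its 95% interval from limma, not adjusted for the number of genes. The intervals of *Lef1*, *Tcf7* and *Axin2* leave out 0.

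*Lef1*, the targeted gene (ENSMUSG00000027985, listed on chromosome 3 from 130813389 to 130927274), had a lowest, median and highest value of 103, 128 and 210 CPM in DKO lines and of 59.0, 933 and 1558 CPM in *E2a-/-* lines. Of the *E2a-/-* lines 6 lay above every DKO line. The library labelled SKO132 lay below every DKO line, so in it the targeted gene goes against the label. The difference was -2.33 (SE 0.53, 95% interval -3.46 to -1.19, adjusted p = 0.0980 from limma, exact permutation p = 0.00389). Without SKO132 the *E2a-/-* mean moved from 928 ± 478 (SD, n = 7) to 1073 ± 312 CPM (SD, n = 6) and the difference to -2.91 (limma adjusted p = 4.88e-06). In SKO132 the Notch receptor gene *Notch1* was at 31.3 CPM, against 1091 to 2266 CPM in the other *E2a-/-* lines, the Notch target *Dtx1* was at 0.22 CPM and *Nrarp* at 0. *Hes1*, another Notch target, was at 20.7 CPM there and did not stand apart, since the *E2a-/-* lines ranged from 20.51 to 129 CPM. The part of these in its *Lef1* level was not tested. Every DKO line kept at least 103 CPM of *Lef1*, and in bulk RNA fewer cells with the mRNA and less mRNA per cell cannot be told apart.

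RefSeq places several starts in *Lef1*. The windows of 250 bases before a start were searched for CTTTGA and CTTTGT on both strands (TCAAAG and ACAAAG on the other strand), the core letters that TCF/LEF factors recognise. They are shown because *Lef1* and *Axin2* had the largest differences among the genes described, and because the *Lef1* windows differ from each other. Matches are in capitals, and all windows read 5′ to 3′ on the plus strand of GRCm38.p6.
*Lef1*, first start, chr3:131110047-131110296: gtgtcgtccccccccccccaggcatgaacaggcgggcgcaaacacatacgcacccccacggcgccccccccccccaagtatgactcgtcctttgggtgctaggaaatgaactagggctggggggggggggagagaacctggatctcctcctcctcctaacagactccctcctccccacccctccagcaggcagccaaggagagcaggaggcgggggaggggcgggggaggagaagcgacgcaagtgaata
*Lef1*, internal start, chr3:131156044-131156293: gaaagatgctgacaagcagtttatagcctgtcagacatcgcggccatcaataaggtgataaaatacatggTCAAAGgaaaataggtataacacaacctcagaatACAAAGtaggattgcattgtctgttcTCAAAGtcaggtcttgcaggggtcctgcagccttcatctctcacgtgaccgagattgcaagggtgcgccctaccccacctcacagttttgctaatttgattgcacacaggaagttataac
*Axin2*, chr11:108920099-108920348: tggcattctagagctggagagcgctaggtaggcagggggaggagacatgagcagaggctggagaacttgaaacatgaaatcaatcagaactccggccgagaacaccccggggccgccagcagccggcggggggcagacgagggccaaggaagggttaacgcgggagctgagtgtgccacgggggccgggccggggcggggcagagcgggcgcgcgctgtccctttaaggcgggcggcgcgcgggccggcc
The internal *Lef1* window held 3 matches, whose first bases lie 180, 146 and 120 bases before the start. The first *Lef1* window and that of *Axin2* held 0. The *Lef1* windows that are not printed, chr3:131110073-131110322 and chr3:131112541-131112790, also held 0. Of 32851 such windows of all genes, 27.6% held at least 1 match, 5.15% at least 2 and 0.776% at least 3. The internal *Lef1* window was picked among several with its matches known, so these shares are not a test of it. For 8 of the 10 genes 15 windows were searched, and beside the internal *Lef1* start only 1 of *Tcf7l2* held a match, 14 bases before the start. A match is a description of the letters and not of a bound site, and because the table gives 1 value per gene, reads from the *Lef1* starts are not separated.

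*Tcf7* (ENSMUSG00000000782, chromosome 11, 52065873 to 52096681), which encodes TCF1, had the highest level of the 9 genes per kb of exon. Its lowest, median and highest values were 2217, 2852 and 3624 CPM in DKO lines and 800, 2019 and 2282 CPM in *E2a-/-* lines. The groups met only at their edges: 7 of 8 DKO lines lay above every *E2a-/-* line, and 6 of 7 *E2a-/-* lines lay below every DKO line. The difference was 0.66 (SE 0.20, 95% interval 0.24 to 1.08, adjusted p = 0.241 from limma, exact permutation p = 0.000466). SKO95 stood apart with 800 CPM, and without it the *E2a-/-* lines were close together at 2058 ± 113 CPM (SD, n = 6) and the difference was 0.46 (limma adjusted p = 0.130). DKO241 had the highest *Tcf7* level, and there genes of chromosome 11 as a whole were raised by 0.47 on the log2 scale over the median line, against -0.07 to 0.10 in the other lines. With the shift of the chromosome subtracted from each line the difference of *Tcf7* was 0.56 (limma adjusted p = 0.306).

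The balance between the mRNAs of both factors followed from these levels. Protein was not measured here. By flow cytometry the paper found similar TCF1 protein in *E2a-/-* and DKO lines, unlike LEF1 protein. Per kb of exon, a rough way to compare levels of different genes, *Tcf7* averaged 1090 ± 176 CPM per kb in DKO (SD, n = 8) and 716 ± 185 in *E2a-/-* lines (SD, n = 7). *Lef1* averaged 15.99 ± 4.22 and 106 ± 54.3. *Lef1* made up 0.991% to 1.91% of the summed *Lef1*, *Tcf7* and *Tcf7l1* level per kb in DKO lines and 10.6% to 19.97% in 6 *E2a-/-* lines, but 0.858% in SKO132. Without division by length, the CPM of *Tcf7* was only 1.197 to 2.506 times that of *Lef1* in these 6 *E2a-/-* lines. It was 34.47 times that of *Lef1* in SKO132 and 15.36 to 29.84 times in DKO lines. The size of the *Lef1* share thus depends on the exon lengths used. *Tcf7* gave most TCF/LEF reads in every line, those with intact *Lef1* included. The third listed gene of the family, *Tcf7l1*, did not exceed 4.19 CPM in any line. The summed level was 1107 ± 177 CPM per kb in DKO (SD, n = 8) and 821 ± 203 in *E2a-/-* lines (SD, n = 7). SKO95 had the lowest sum, 381 CPM per kb, and also the highest share of *Lef1*, 19.97%.

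**Figure D3:**
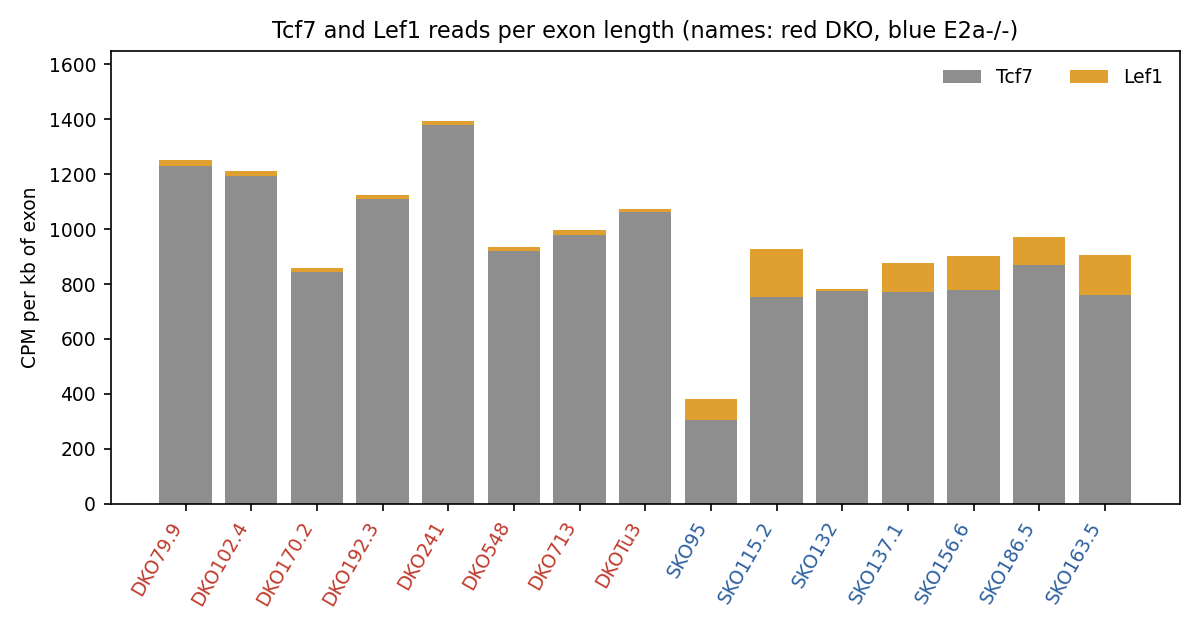
Stacked bars show *Tcf7* (grey) and *Lef1* (orange) in CPM per kb of exon for each line. The orange part is thin in the 8 DKO lines and in SKO132, and the bar of SKO95 is the shortest, at 381.

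*Ctnnb1* (ENSMUSG00000006932, chromosome 9, 120838334 to 120869625), the gene of β-catenin, had a lowest, median and highest value of 343, 600 and 764 CPM in DKO and of 440, 548 and 617 CPM in *E2a-/-* lines. The *E2a-/-* values lay within the span of the DKO values. The difference was 0.08 (95% interval -0.24 to 0.40, limma adjusted p = 0.887, exact permutation p = 0.622). It was 0.18 without DKO79.9 and 0.02 without DKO713. The interval leaves out differences above 0.40 and below -0.24. Per kb of exon *Ctnnb1* averaged 111 ± 25.9 CPM in DKO (SD, n = 8) and 103 ± 13.5 CPM in *E2a-/-* lines (SD, n = 7), so the summed TCF/LEF level per kb was 6.78 to 19.0 times that of *Ctnnb1* in DKO lines and 3.20 to 10.8 times in *E2a-/-* lines. These are mRNA levels. β-catenin is controlled mainly through the stability of the protein, which was not measured here.

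The 2 Axin genes, whose proteins are interchangeable scaffolds of the destruction complex, differed in how much they varied. *Axin1* (ENSMUSG00000024182, chromosome 17, 26275631 to 26332756) ranged from 99.5 to 127 CPM with a median of 115.1 CPM in DKO lines and from 106 to 121 CPM with a median of 113 CPM in *E2a-/-* lines. Its difference was 0.01 (95% interval -0.12 to 0.14, limma adjusted p = 0.973, exact permutation p = 0.844). The SD of its log2 level within a genotype was 0.088, and only 0.196% of the 9707 genes with a mean CPM of 5 or more had a lower one (median of these genes 0.326). *Axin1* is thus among the steadiest genes of these lines.

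*Axin2* (ENSMUSG00000000142, chromosome 11, 108781663 to 108812097) had a lowest, median and highest value of 76.9, 212 and 259 CPM in DKO lines and of 19.9, 63.8 and 87.2 CPM in *E2a-/-* lines. Of the DKO lines 7 of 8 lay above every *E2a-/-* line. The exception, DKO79.9, was the shallowest library and had 373 reads of *Axin2*. The part of depth in this value was not tested. The means were 185.6 ± 68.2 (SD, n = 8) and 59.2 ± 28.4 CPM (SD, n = 7), a ratio of 3.14. The difference was 1.73 (SE 0.37, 95% interval 0.93 to 2.52, adjusted p = 0.0832 from limma, exact permutation p = 0.000932). It did not pass the threshold of 0.01 in limma, and did in the likelihood ratio test (adjusted p = 0.000203) and DESeq2 (adjusted p = 0.000586). With the shift of chromosome 11 subtracted from each line it was 1.63 (limma adjusted p = 0.111). Per kb of exon, the level of *Axin2* was 0.455 to 1.65 times that of *Axin1* in DKO lines (median 1.24) and 0.122 to 0.533 times in *E2a-/-* lines (median 0.414). It exceeded that of *Axin1* in 5 of 8 DKO and 0 of 7 *E2a-/-* lines. Without division by length the counts were 7 of 8 and 0 of 7, so the DKO count depends on the exon lengths used.

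Within the *E2a-/-* lines *Axin2* fell into a low pair and a group of 5. SKO95, with the lowest *Tcf7*, had 19.9 CPM, and SKO132, with the lowest *Lef1*, had 20.02 CPM, while the other 5 lines lay between 63.0 and 87.2 CPM. As a description with no test, *Lef1* and *Axin2* had Pearson's r of 0.74 and Spearman's rho of 0.57 over the 7 *E2a-/-* lines. Without the 2 lines farthest from the median of *Lef1*, SKO115.2 and SKO132, r was 0.70. SKO95, the other line of the low pair, was still included there. The low pair also had the 2 lowest *Lef1* values (59.0 and 668 CPM), and r without both was not computed. Over the 8 DKO lines r was -0.26 and rho -0.12 (r of 0.35 without 2). *Tcf7* and *Axin2* had an r of 0.64 and a rho of 0.14 over the *E2a-/-* lines (r of 0.08 without SKO95, and -0.50 without the 2 lines farthest from the median of *Tcf7*), and -0.20 and -0.10 over the DKO lines (r of 0.02 without 2). Over the DKO lines *Ctnnb1* and *Axin2* had an r of 0.63 and a rho of 0.50 (r of 0.16 without the 2 lines farthest from the median of *Ctnnb1*, and 0.14 without DKO79.9 alone). Over the *E2a-/-* lines the same pair had an r of -0.60 and a rho of -0.54 (r of -0.68 without 2). Levels of all genes in a line share its library and depth.

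**Figure D4:**
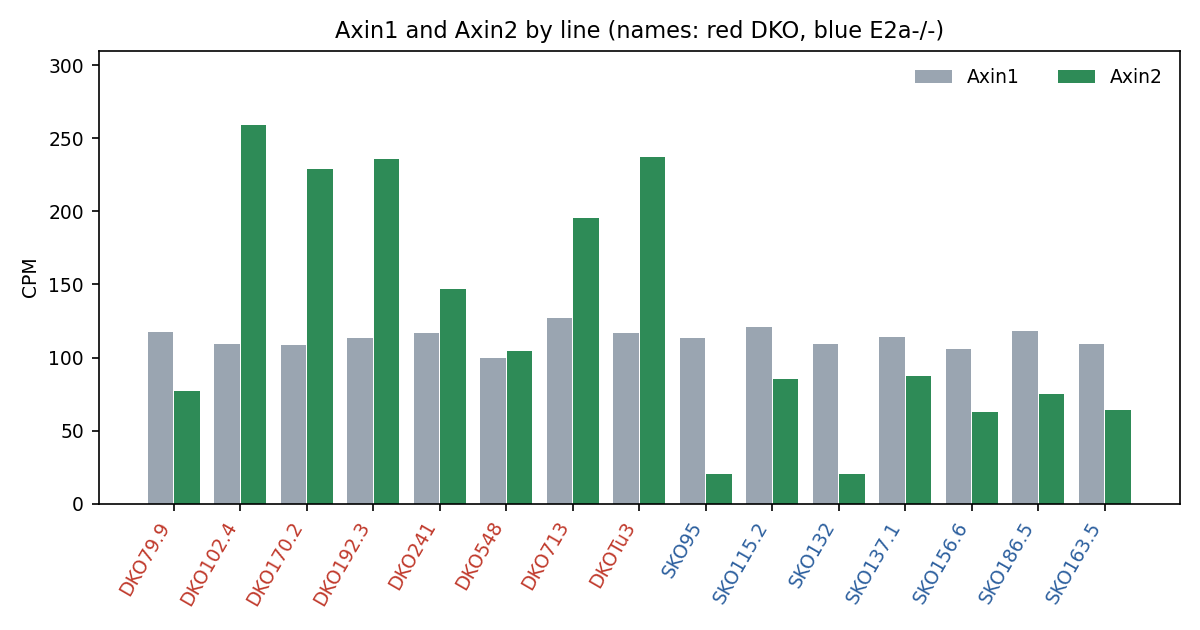
Bars show *Axin1* (grey) and *Axin2* (green) in CPM for each line, from 0. *Axin1* stays between 99.5 and 127 throughout, while *Axin2* ranges from 76.9 to 259 in DKO and from 19.9 to 87.2 in E2a-/- lines. The values are not divided by exon length, so the heights of the 2 genes are not compared with each other.

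*Apc* (ENSMUSG00000005871, chromosome 18, 34380578 to 34481843), the tumor suppressor of the destruction complex, had a lowest, median and highest value of 52.2, 120 and 174 CPM in DKO lines and of 82.9, 118 and 170 CPM in *E2a-/-* lines. The groups covered nearly the same range. The difference was -0.11 (95% interval -0.61 to 0.40, limma adjusted p = 0.911, exact permutation p = 0.688). *Apc* and *Ctnnb1* had an r of 0.66 and a rho of 0.76 over the DKO lines (r of 0.46 without the 2 lines farthest from the median of *Apc*), and 0.32 and 0.36 over the *E2a-/-* lines (r of 0.18 without 2).

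Among *Tle1*, *Tle3* and *Tle4*, *Tle3* carried nearly all the reads in most lines. *Tle3* (ENSMUSG00000032280, chromosome 9, 61220190 to 61266297) had a lowest, median and highest value of 169, 338 and 454 CPM in DKO lines and of 143, 343 and 435 CPM in *E2a-/-* lines. The groups overlapped almost fully, and the difference was 0.10 (95% interval -0.39 to 0.58, limma adjusted p = 0.916, exact permutation p = 0.684), or -0.08 without SKO132. *Tle3* held a median of 99.7% of the summed *Tle1*, *Tle3* and *Tle4* CPM in DKO lines and of 99.6% in *E2a-/-* lines. It was lowest, and this share was smallest, in the same line of each genotype, 85.2% in DKO79.9 and 69.8% in SKO132.

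In both lines the rest was mainly *Tle4* (ENSMUSG00000024642, chromosome 19, 14522562 to 14672473). *Tle4* was at 61.3 CPM in SKO132, at 27.6 CPM in DKO79.9, at 12.04 CPM in SKO186.5 and at 10.1 CPM in SKO156.6, the pair of lines that were most alike. The other 11 lines had at most 1.496 CPM, and 6 of them were under the amount of 3 reads. With medians of 0.15 CPM in DKO and 0.75 CPM in *E2a-/-* lines, the difference was -1.09 (95% interval -3.12 to 0.94, limma adjusted p = 0.720, exact permutation p = 0.329). It was -0.44 without SKO132 and -1.64 without DKO79.9. *Tle4* had a larger SD within a genotype, 1.99 on the log2 scale, than 97.7% of the genes whose mean was 5 CPM or more. Its own mean of 7.68 CPM came mainly from SKO132 and DKO79.9. The few high lines thus set both this mean and the large SD.

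*Tle1* (ENSMUSG00000008305, chromosome 4, 71778176 to 71861953) was close to the detection limit. It reached 7.36 CPM in DKOTu3 and 1.85 CPM in DKO79.9, and did not exceed 0.72 CPM in any *E2a-/-* line. In 2 DKO and 4 *E2a-/-* lines it was under the amount of 3 reads, and these 6 values cannot be told apart from 0. The difference was 0.54 (95% interval -0.29 to 1.38, limma adjusted p = 0.660, exact permutation p = 0.219), and 0.23 without DKOTu3.

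3 further family members are given for context, and lie close together on chromosome 10. *Aes* encodes a short TLE protein that lacks most of the repressive part. It had a lowest, median and highest value of 21.2, 81.1 and 338 CPM in DKO lines and of 56.4, 243 and 300 CPM in *E2a-/-* lines, and 4 of 8 DKO lines were below every *E2a-/-* line. The difference was -1.30 (SE 0.54, limma adjusted p = 0.434, exact permutation p = 0.0472). Without division by length, *Aes* was above *Tle3* in DKO79.9 (338 against 169 CPM) and in SKO132 (268 against 143 CPM). In the other lines *Aes* was below *Tle3*. The shares of *Tle3* given above leave *Aes* out. *Tle2* and *Tle6* were highest in SKO132 (25.2 and 53.4 CPM) and reached 5.47 and 14.7 CPM in DKOTu3. Both genes end within a short distance of each other on opposite strands, and whether reads were counted by strand is not stated, so their reads may not be fully separated. SKO132 thus had the lowest *Tle3* of all lines and the highest *Tle4*, *Tle2* and *Tle6*.

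**Figure D5:**
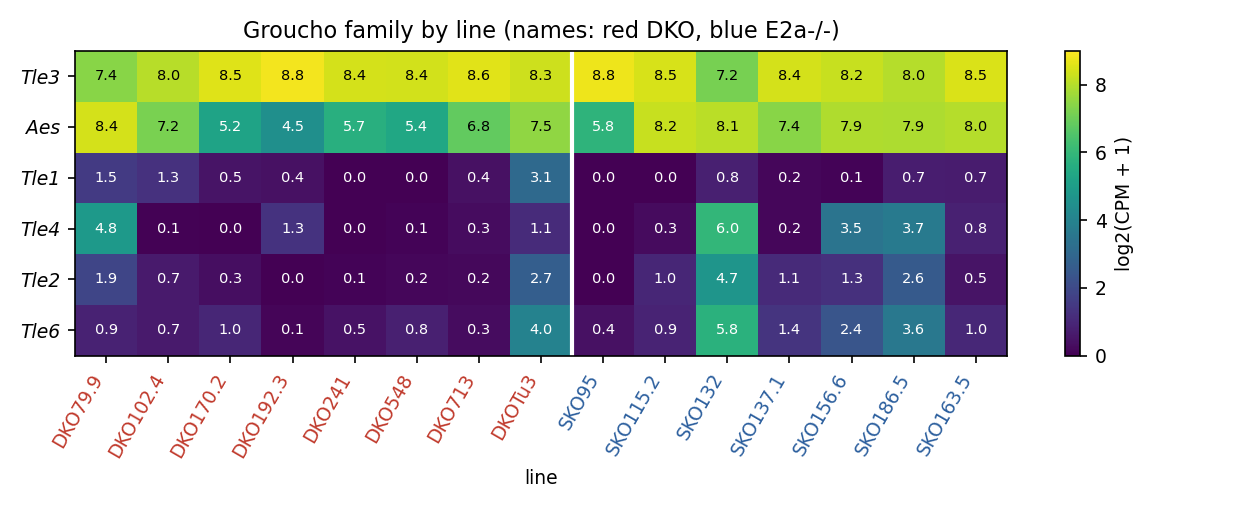
Colors and printed values give log2(CPM + 1) of 6 Groucho family genes (rows) in the 15 lines (columns), with the white line between DKO and E2a-/- lines. *Tle3* is high throughout, while *Tle4*, *Tle2* and *Tle6* stand out in SKO132.

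The rest of the Wnt/β-catenin pathway was taken from 5 lists of 126 genes, of which 85 are listed. At an adjusted p under 0.01 limma called 0 of them, the likelihood ratio test and DESeq2 1 each and the quasi-likelihood test 0. At an unadjusted p under 0.05, 4 of the 85 were higher in DKO lines and 4 were lower, against 4.33% and 5.83% of all genes. The median difference was -0.01 over the 85 genes and -0.02 over all 12545. Among the ligands and their secretion genes 5 of 22 were listed, among receptors and their regulators 18 of 29, among the cytoplasmic relay 25 of 29, among nuclear partners 25 of 26 and among known targets 17 of 27.

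*Wnt5b*, a ligand best known for signals that do not pass through β-catenin, had a median of 38.7 CPM (22.5 to 56.1) in DKO lines and of 12.4 CPM (5.90 to 37.4) in *E2a-/-* lines. Its difference was 1.34 (SE 0.40, limma adjusted p = 0.228, exact permutation p = 0.00855), and 4 DKO lines lay above every *E2a-/-* line. Of the 18 listed receptors and regulators only *Fzd9* had an unadjusted p under 0.05, higher in DKO lines, where 4.33% of all genes pass. Its means were 0.99 ± 0.77 CPM (SD, n = 8) and 0.27 ± 0.30 CPM (SD, n = 7), and it was chosen after its values were seen. In the cytoplasmic relay 0 of 25 genes had an unadjusted p under 0.05 and the median difference was -0.03. The kinase gene *Gsk3b*, which marks β-catenin for destruction, was at 149 ± 32.4 CPM in DKO (SD, n = 8) and 149 ± 15.4 CPM in *E2a-/-* lines (SD, n = 7).

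Of the 25 listed nuclear partners 3 had an unadjusted p under 0.05, all lower in DKO lines, where 5.83% of all genes pass. *Aes* was among them. *Pygo2*, a coactivator that joins β-catenin through BCL9 proteins, had a median of 44.8 CPM (30.1 to 55.6) in DKO lines and of 62.4 CPM (52.6 to 78.05) in *E2a-/-* lines. The difference was -0.50 (SE 0.13, limma adjusted p = 0.140, DESeq2 adjusted p = 0.00524, exact permutation p = 0.00140). *Ctnnbip1*, whose product keeps β-catenin from binding TCF factors, had a median of 5.70 CPM (0.35 to 15.2) in DKO lines and of 15.2 CPM (9.81 to 29.5) in *E2a-/-* lines. Its difference was -1.47 (SE 0.41, limma adjusted p = 0.185, exact permutation p = 0.00218), and 7 of 8 DKO lines lay below every *E2a-/-* line. A coactivator and an inhibitor of β-catenin were thus both lower, without passing limma's threshold.

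Of the 17 listed targets 14 had a positive and 3 a negative difference, with a median of 0.22, where 46.3% of all genes had a positive difference. Only 11 of the 17 averaged 5 CPM or more. The median is the value of *Cd44*, which averaged 0.68 CPM in DKO and 0.36 CPM in *E2a-/-* lines. The sign count thus includes genes with few reads, and it was not tested. Of these 17 targets 2 higher and 1 lower in DKO lines had an unadjusted p under 0.05, where 4.33% and 5.83% of all genes pass. *Jun*, an AP-1 factor, had a median of 7.29 CPM (0.58 to 84.2) in DKO lines and of 0.35 CPM (0.095 to 11.3) in *E2a-/-* lines (difference 2.29, SE 0.75, limma adjusted p = 0.284). *Bambi*, a decoy receptor of the TGF-β family, had a median of 7.73 CPM (3.96 to 15.6) and of 1.59 CPM (0.47 to 13.4), with a difference of 1.30 (SE 0.46, limma adjusted p = 0.338). *Id2*, an inhibitor of E proteins, had a median of 20.6 CPM (2.37 to 44.0) in DKO lines and of 58.1 CPM (5.07 to 83.5) in *E2a-/-* lines, and its difference was -1.34 (SE 0.59, limma adjusted p = 0.460). *Nkd1*, like *Axin2* a feedback inhibitor of Wnt signals, averaged 55.3 ± 66.7 CPM in DKO (SD, n = 8) and 8.28 ± 5.68 CPM in *E2a-/-* lines (SD, n = 7; limma adjusted p = 0.666), and was chosen after its values were seen. *Myc* was at 404 ± 86.6 and 342 ± 51.1 CPM (limma adjusted p = 0.583). *Prox1*, called by the likelihood ratio test alone (adjusted p = 0.00652), did not exceed 2.59 CPM in DKO lines and was at 0 in the 7 *E2a-/-* lines.

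The genes whose pattern was most like that of *Lef1*, *Tcf7* or *Axin2* were ranked by Pearson's r of log2(CPM + 1) over the 15 lines with each genotype mean subtracted, among genes whose mean was 5 CPM or more, and are given with no test. For *Lef1* these were *Dtx1* (r of 0.97), *Skap1* (0.97) and *Fam169b* (0.96), and without SKO132 the values were 0.79, 0.64 and 0.74. For *Tcf7* they were *Sestd1* (0.94), *Dpp7* (0.93) and *Bcor* (0.93), and without SKO95, where *Sestd1* was at 0.05 CPM, the values were 0.67, 0.64 and 0.85. For *Axin2* they were *Cd59b* (0.83), *Vps36* (0.81) and *Galnt4* (0.80), and without SKO95 they were 0.86, 0.82 and 0.79.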

How the data were processed

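RNA was sequenced on a NextSeq instrument, 1 library per line. According to the submitters' processing notes and the paper's methods, reads were trimmed with Trimmomatic (version 0.33), aligned to mm10 with TopHat2 (version 2.1.0) and counted per gene with HTSeq (version 0.6.1). The authors deposited CPM values made with edgeR, without a factor between libraries. The CPM of 1 read was estimated for each line, starting from its lowest value above 0 and refined over its low values. Dividing by it gave whole numbers (within 0.05) for 100% of the values. These reads, 4847970 to 21681586 per line, served the count tests.

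Groups were taken from the labels, which give no batch. In R (version 4.3.3), log2(CPM + 1) of all 12545 genes and 15 lines was analysed with limma (version 3.58.1) and a trend of the variance, with Benjamini-Hochberg adjustment over all genes and a threshold of 0.01. Exact permutation tests were two-sided, and the smallest p they allow is 0.000155. Count tests used edgeR (version 4.0.16) and DESeq2 (version 1.42.0). Other settings tried were 0.1 or 2 as the pseudocount, only genes averaging 1 CPM or more, no trend, array weights, TMM and median-of-ratios factors, SKO156.6 and SKO186.5 as 1 line, subtraction of the chromosome shift, and each line left out in turn. Correlations without SKO95, SKO132 or DKO79.9 were added after seeing the data. Fits were also run on simulated counts, in which the lines of a genotype shared the same mean for each gene apart from depth. That does not check how lines that stand apart affect the tests. The chromosome shift is the median over its genes of log2(CPM + 1) minus the gene's median over the lines, less that of all autosomes. Levels per kb used the union of exons in GENCODE M21. Positions are as the table lists them, since 190 of 12172 genes with a symbol start within 1 bp of their GRCm38 position. Promoter sequences are from RefSeq.

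The genes described and the pathway lists were chosen with earlier results of these data known. Of the pathway lists, genes called by limma were to be named, and up to 5 per direction with the lowest unadjusted p under 0.05 and a mean of at least 5 CPM. The sequences of proteins were not used here.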

Additional observations from a re-analysis of the deposited data

Results flagged for a closer look

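In 18 groups, 9 genes in each of 2 genotypes, 4 single lines stood far from the rest of their group by Dixon's ratio of gap to range, taken on CPM. For normally distributed values chance gives about 1 in 20 groups, or 0.9 here, but *Tle1* and *Tle4* are skewed and partly under the amount of 3 reads, so that rate does not apply to them. *Tcf7* in SKO95 was at 799.84 CPM, against 1972 to 2282 CPM in the other *E2a-/-* lines. *Tle4* in SKO132 was at 61.3 CPM, against 0 to 12.04 CPM in the other *E2a-/-* lines. *Tle4* in DKO79.9 was at 27.6 CPM (134 reads), against 0 to 1.496 CPM in the other DKO lines. This library was the shallowest, and the part of depth in the value was not tested. *Tle1* in DKOTu3 was at 7.36 CPM, against 0 to 1.85 CPM in the other DKO lines.
On log2(CPM + 1) 3 lines passed the same limits: *Tcf7* in SKO95 (ratio 0.86), *Tle4* in DKO79.9 (0.73) and *Lef1* in SKO132 (0.74). *Tle4* in SKO132 (0.38) and *Tle1* in DKOTu3 (0.51) did not. The log2 scale was added after seeing the data.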

How the results depend on the processing

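Limma called 0 of the 9 genes at an adjusted p under 0.01, array weights 1 (*Lef1*), and the likelihood ratio test and DESeq2 2 each (*Lef1* and *Axin2*). With 1 line left out the count was 0 to 1, the 1 being *Lef1* without SKO132. The cause of these differences between tests was not tested. Of the other pathway genes limma called 0, the likelihood ratio test 1 (*Prox1*) and DESeq2 1 (*Pygo2*). Over all 27 alternatives *Lef1* lay between -2.91 and -2.13 (adjusted p 1.19e-09 to 0.210), *Axin2* between 1.51 and 1.89 (0.000203 to 0.167) and *Tcf7* between 0.46 and 0.71 (0.0239 to 0.393), with the direction the same in each. Differences close to 0 changed sign: that of *Apc* was 0.025 with array weights and -0.21 to 0.040 with 1 line left out, that of *Axin1* -0.018 with the chromosome shift subtracted and -0.014 to 0.036 with 1 line left out, and that of *Tle3* -0.078 to 0.23 with 1 line left out. *Tle4* was at -1.64 without DKO79.9 and -0.44 without SKO132. Over all genes limma called 6, and 3 to 17 with 1 line left out (17 without SKO132), array weights 29, the likelihood ratio test 155, DESeq2 177 and the quasi-likelihood test 1. No paired analysis was possible because the labels give no numbers shared between the groups. The 3 reads that set the lowest usable value limit *Tle1* and *Tle4*.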
